A study of Rattus norvegicus with 20 samples.

Results

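The comparison sets celecoxib at the reference concentration 1/5 against celecoxib at 1/25, both after 24 h, in primary cultures of neonatal rat heart. Its 6 arrays, 3 of each concentration, were chosen by their sample titles out of 20 in the series. Both groups were cultured from neonatal rat heart tissue, grown for 1 day in DMEM medium and then exposed to celecoxib for 24 h, so by the labels they differ only in concentration, and neither holds untreated cells. The labels give the concentrations as fractions of a reference concentration of 1 and do not state its absolute value. They do not say whether the replicates were separate cultures or came from separate animals, so every p-value measures only how arrays scatter within groups, and that scatter may be technical. The fit shares 1 spread per gene over the 9 arrays of 24 h, so the errors also carry the scatter of the 3 arrays of concentration 1. Total RNA was labelled with Cy3 and hybridised to single-colour Agilent arrays of 60-base probes. The remaining arrays of the series hold untreated cells, celecoxib at 1 for 24 h and all 3 concentrations for 6 h.

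Celecoxib is an anti-inflammatory drug that inhibits cyclooxygenase 2, the product of Ptgs2, which turns arachidonic acid into the precursor of the prostaglandins and thromboxane. It also binds carbonic anhydrases, and at high concentrations it is known to stress the endoplasmic reticulum of cultured cells. Cultures of neonatal rat heart hold beating cardiomyocytes together with fibroblasts and other cells of the heart wall, and in such a mixture fewer cells of a type and less RNA per cell cannot be told apart.

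No gene passed the test between 1/5 and 1/25 at 24 h. Of 23600 genes tested with limma's moderated test, 0 (0%) had a Benjamini-Hochberg adjusted p below 0.05, and the smallest adjusted p was 0.233. Without 1/5 replicate 3 the count was 9, without 1/5 replicate 2 it was 2, and without 1/5 replicate 1 or without 1/25 replicate 2 it was 1. An unadjusted p below 0.05 was reached by 2160 genes (9.15%), 1156 of them higher at 1/5 (4.9%) and 1004 lower (4.25%). A difference of 1 or more on the log2 scale, in either direction, was read for 584 genes (2.47%). The median gene differed by 0.05 on the log2 scale, with quartiles of -0.20 and 0.25, and the 95% confidence interval of a gene reached a median of 0.55 to each side of its estimate. For a gene of median error, an estimate smaller than that could not be told from 0 with 3 arrays a group, even without adjustment. The adjusted test asked for more, and the 584 genes above did not pass it either.

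The 6 arrays were close to each other. The share of probes read well above background was 63.5% to 79.7% on the arrays of 1/5 and 65.1% to 73.2% on those of 1/25. The correlation between 2 arrays over the tested genes ran from 0.946 to 0.971 for pairs of different concentration, against 0.957 to 0.973 for pairs of the same concentration, so the ranges overlapped. The arrays were not spread evenly over slides: 1/5 replicate 3 shared a slide with all 3 arrays of 1/25, and 1/5 replicates 1 and 2 lay on another slide. All 6 were scanned on 1 day. The difference on the shared slide alone is therefore given beside the overall one where it matters, with 1 array of 1/5 and no test.

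Saturated spots leaned to 1/5 and had to be read apart. Levels here are log2 signals relative to the 75th percentile of the same array, so a level of 0 is the signal of that percentile. A spot at the scanner's ceiling carries no measured change. Of the tested genes, 3434 had a saturated spot on at least 1 of the 6 arrays, and 85% of their differences were above 0, with a median of 0.22 on the log2 scale. The other 20166 genes were saturated on none of the 6 arrays, with 50.1% of differences above 0 (55.1% over all tested genes) and a median difference of 0.00. Saturated probes made up 6.01% to 6.50% of each 1/5 array and 6.67% to 7.72% of each 1/25 array. The counts below are therefore given for genes saturated on no array, a choice made after these values were seen. Among them, 8.59% had all 3 arrays of 1/5 above all 3 of 1/25 and 7.84% had all 3 below (13.1% and 7.04% over all genes), and 5.01% read higher and 4.80% lower at an unadjusted p below 0.05.

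**Figure D1:**
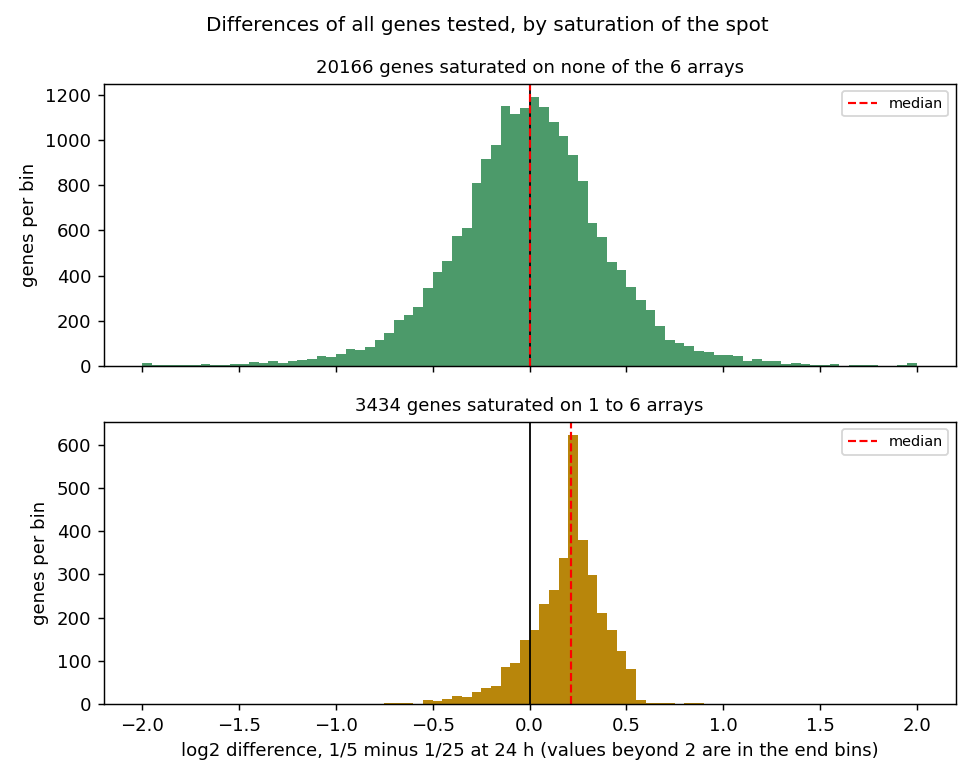
Number of genes (vertical axis) by log2 difference, 1/5 minus 1/25 at 24 h (horizontal axis), for genes saturated on none of the 6 arrays (upper panel) and on 1 to 6 arrays (lower panel). The upper distribution is centred on 0.00, and the lower one has a median of 0.22 (dashed lines).

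The genes named next are the 12 with the smallest p in each direction among named genes whose signal exceeded background clearly on each of the 6 arrays and whose groups did not overlap. That non-overlap belongs to the rule and is no result about them, and all 24 had adjusted p-values between 0.233 and 0.328. The probes that carry the 3 smallest p-values on each side are shown here, since each difference rests on a single 60-base stretch of the transcript. They are printed as listed in the scanner files, with the positions those files give in the rn3 build of the rat genome, and no part is capitalised because the whole probe hybridises. An annotation of that build was not used here, so exon or intron is not stated. The interval listed for Pdk1 is longer than its probe, as is that of the dimmer Efna3 probe shown later.
Eaf1, chr16:6944308-6944367, plus strand: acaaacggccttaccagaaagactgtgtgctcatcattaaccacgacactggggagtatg
Kidins220, chr6:42742940-42742999, plus strand: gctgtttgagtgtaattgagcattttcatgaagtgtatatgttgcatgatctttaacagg
Nkg7, chr1:93892089-93892148, plus strand: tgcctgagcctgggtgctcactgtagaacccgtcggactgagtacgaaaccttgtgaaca
Prrg4, chr3:90081456-90081515, minus strand: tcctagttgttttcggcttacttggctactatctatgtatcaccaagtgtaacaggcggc
Pdk1, chr3:54199346-54199646, plus strand: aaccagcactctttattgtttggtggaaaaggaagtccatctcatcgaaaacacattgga
Or2y1h, chr10:34752176-34752235, plus strand: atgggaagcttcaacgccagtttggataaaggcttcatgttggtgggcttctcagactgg

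Among the 12 genes named as higher at 1/5, Eaf1 had the smallest p. Eaf1 encodes a partner of the ELL elongation factors of RNA polymerase II. Its level was -1.98, -1.33 and -1.59 on the 3 arrays of 1/5, against -3.51, -3.01 and -3.38 on those of 1/25. Every array of 1/5 lay more than 1 log2 unit above every array of 1/25. The difference was 1.67 ± 0.23 on the log2 scale (SE), a 3.17-fold reading, with an adjusted p of 0.233 (limma).

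Kidins220, a membrane scaffold that links neurotrophin receptors to signalling, had levels of 0.02, 0.13 and -0.49 at 1/5, against -1.42, -1.28 and -1.34 at 1/25. The 1/25 arrays lay close together, and 1/5 replicate 3 was the lowest of its group. The difference was 1.23 ± 0.20 (SE; adjusted p 0.238), and 0.85 on the shared slide. Nkg7, a granule protein of cytotoxic lymphocytes, had levels of -1.56, -0.71 and -1.08 at 1/5, against -2.97, -3.05 and -2.44 at 1/25. Its difference was the largest of the 12, at 1.70 ± 0.29 (SE; adjusted p 0.238).

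Aldh1a2 makes retinoic acid from retinaldehyde and is a gene of the epicardium, the outer cell layer of the heart. It had levels of 0.73, 0.46 and 0.70 at 1/5, against -0.80, -0.26 and -0.69 at 1/25. The groups were separated by more than the spread within either, and the difference was 1.21 ± 0.22 (SE; adjusted p 0.238). Of the 8 tested epicardial and mesothelial markers saturated on no array, Aldh1a2 included, 3 read higher and 5 lower at 1/5, with a median difference of -0.20.

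Dnajc9, a J-domain co-chaperone that handles histones, had levels of 1.22, 1.2 and 1.0 at 1/5, against -0.07, -0.37 and 0.06 at 1/25. The difference of this probe was 1.27 ± 0.24 (SE; adjusted p 0.238), and the second probe of the gene read 0.53 higher. Ern1 encodes IRE1, the sensor of the endoplasmic reticulum that splices the Xbp1 messenger RNA. Its levels were -0.53, -0.84 and -0.36 at 1/5, against -2.22, -1.36 and -1.58 at 1/25, a difference of 1.15 ± 0.26 (SE; adjusted p 0.328).

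The other 6 genes of the higher side differed by 0.76 to 1.55. Ybx1-ps10, a pseudogene of the Y-box gene Ybx1 whose probe may also bind its parent transcript, read 1.55 higher. Rnf103, a ubiquitin ligase of the endoplasmic reticulum, read 0.98 higher, and Uba3, the catalytic subunit of the enzyme that activates NEDD8, read 1.15 higher (0.63 with normexp). Zfp612, a zinc finger gene, read 1.15 higher, with a second probe at 0.26. C11h3orf70 read 1.17 higher, and this came to 0.75 on the shared slide, with a second probe at 0.49. Rnase6, a secreted ribonuclease, read 0.76 higher. All of these adjusted p-values were between 0.238 and 0.328.

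Of the 12 genes named as lower, Prrg4, a transmembrane protein with a Gla domain, had the smallest p. Gucy1a2, a subunit of soluble guanylate cyclase, had the smallest p of all genes tested (adjusted p 0.233) but its tested probe was not well above background on any array of 1/5, so it is outside the naming rule. The level of Prrg4 was -1.77, -1.88 and -2.06 at 1/5, against -0.55, -0.58 and -0.58 at 1/25. Both groups were tight, and the difference was -1.33 ± 0.20 (SE; adjusted p 0.238), and -0.84 with normexp background correction. Pdk1, the kinase that inhibits pyruvate dehydrogenase and is induced by hypoxia, had levels of -3.35, -2.79 and -2.51 at 1/5, against -1.43, -1.63 and -1.47 at 1/25. Its difference was -1.37 ± 0.24 (SE; adjusted p 0.238), with -1.0 on the shared slide and -0.66 with normexp.

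Cspg4 encodes the NG2 proteoglycan, a marker of pericytes. It had levels of -0.23, 0.01 and -0.72 at 1/5, against 1.03, 0.88 and 0.81 at 1/25, a difference of -1.22 ± 0.23 (SE; adjusted p 0.238), and -0.50 with normexp. Of the 10 tested markers of smooth muscle and pericytes saturated on no array, Cspg4 included, 4 read higher and 6 lower, with a median of -0.13. Cd93, a lectin-like receptor of endothelium and myeloid cells, had levels of -0.22, 0.40 and -0.15 at 1/5, against 1.05, 0.85 and 1.19 at 1/25. Its difference was -1.01 ± 0.21 (SE; adjusted p 0.285), while none of the 5 endothelial markers saturated on no array differed at an unadjusted p below 0.05.

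Ahsp stabilises free alpha globin in red cell precursors. It had levels of -1.62, -1.13 and -1.41 at 1/5, against -0.35, -0.65 and -0.44 at 1/25, a difference of -0.91 ± 0.19 (SE; adjusted p 0.285). The other 6 erythroid markers tested all read slightly higher at 1/5, and the median of the list was 0.12. Gpc4, a glypican of the cell surface, had levels of -2.57, -2.81 and -2.37 at 1/5, against -1.21, -1.46 and -1.93 at 1/25, a difference of -1.05 ± 0.23 (SE; adjusted p 0.323).

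Efna3, a membrane-bound ligand of Eph receptors, was read by a pair of probes that differed in direction. The brighter probe, which stands for the gene by the rule, averaged -2.59 at 1/5 and -1.38 at 1/25. The dimmer probe averaged -1.83 at 1/5 and -2.32 at 1/25, that is, 0.49 higher at 1/5.
Efna3, brighter probe, chr2:181446234-181446293, minus strand: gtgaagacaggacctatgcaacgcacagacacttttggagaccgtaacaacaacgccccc
Efna3, dimmer probe, chr2:181448978-181449382, minus strand: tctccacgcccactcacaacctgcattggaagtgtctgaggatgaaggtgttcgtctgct
The gene's difference of -1.21 therefore rests on 1 of its probes.

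The remaining 5 genes of the lower side differed by -1.32 to -1.12. Or2y1h, an olfactory receptor gene, read -1.32 and Zc3hav1l, related to an antiviral zinc finger protein, also read -1.32. Mllt11 read -1.28, and Gorasp2, which stacks Golgi cisternae, read -1.21. Recql4, a DNA helicase, read -1.12. All of these adjusted p-values were between 0.238 and 0.326.

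**Figure D2:**
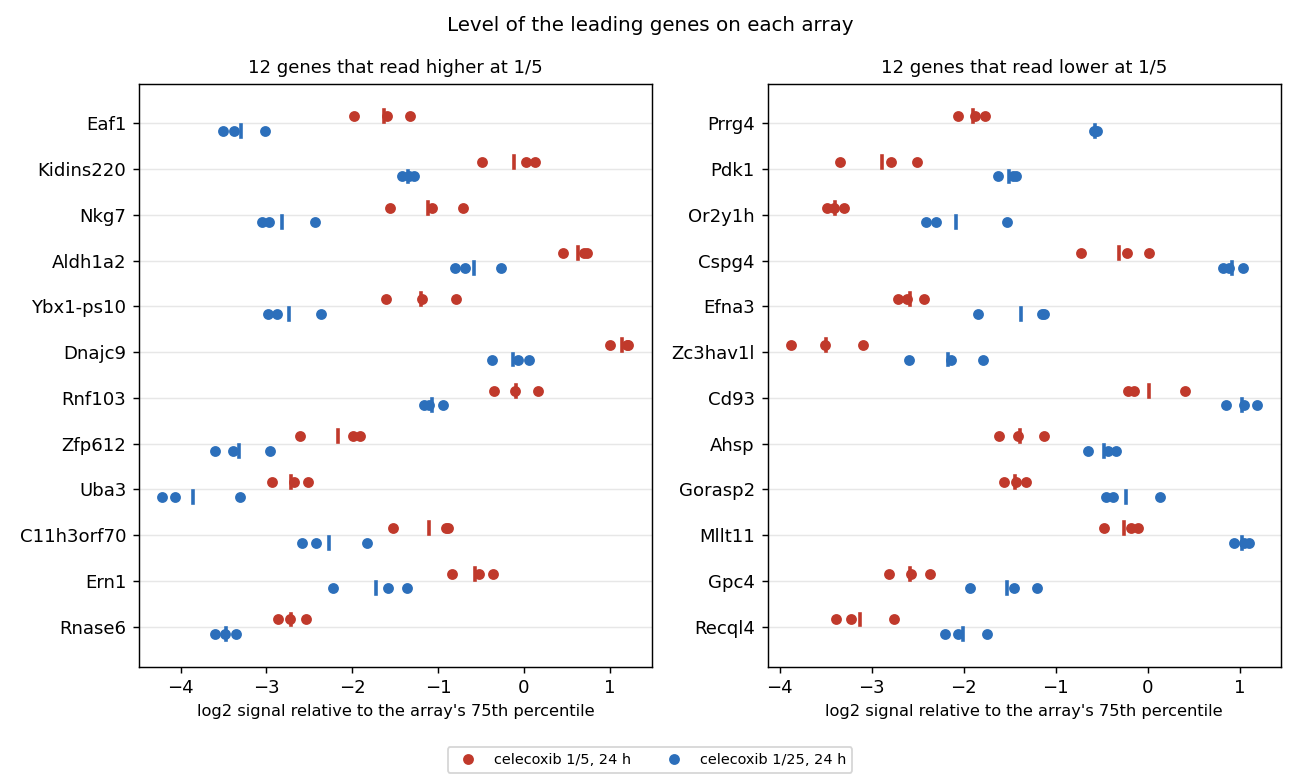
Level of each leading gene on each array, as log2 signal relative to the array's 75th percentile (horizontal axis), for genes that read higher (left) and lower (right) at 1/5. Points are arrays of celecoxib 1/5 (red, upper in each row) and 1/25 (blue, lower), vertical bars are means of 3 arrays, and the groups do not overlap because the naming rule required it.

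The direction of the 24 genes on the shared slide was fixed by the naming rule and is no result. That rule placed every array of 1/5, replicate 3 included, on the same side of all 1/25 arrays. On the shared slide, 1/5 replicate 3 lay above the mean of the 1/25 arrays by 0.75 to 1.95 for the 12 higher genes and differed from it by -1.63 to -0.84 for the 12 lower ones. C11h3orf70 was the 1 gene of the 24 whose difference was more than 1.5 times smaller there. That array is also part of the overall difference, so the values on the shared slide are not independent of it.

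**Figure D3:**
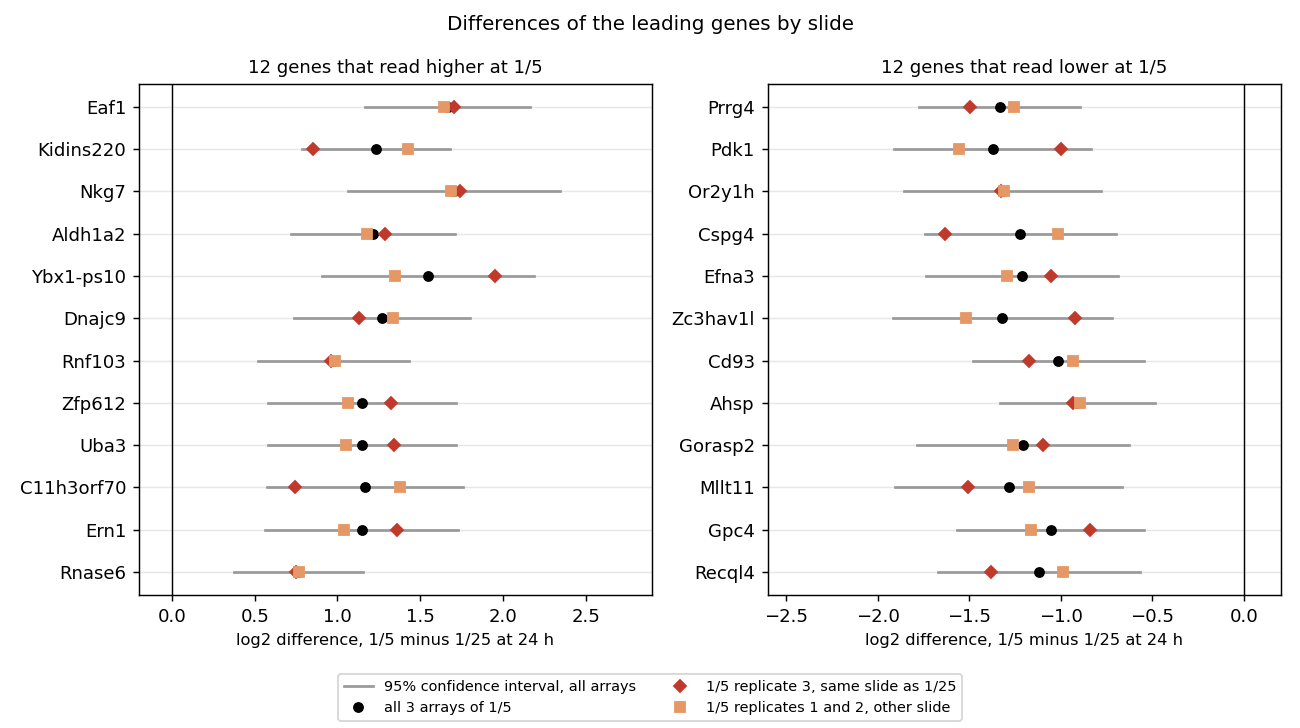
Log2 difference, 1/5 minus 1/25 at 24 h (horizontal axis), of each leading gene over all arrays (black points with 95% confidence intervals), for 1/5 replicate 3 on the slide of the 1/25 arrays (red diamonds) and for 1/5 replicates 1 and 2 on another slide (orange squares). The red diamonds run from 0.75 to 1.95 on the left and from -1.63 to -0.84 on the right.

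Of the 23600 genes tested, 37 were well above background on all 3 arrays of 1/5 and on none of 1/25, and 3 showed the reverse. The share of probes well above background was 63.5% to 79.7% on arrays of 1/5 and 65.1% to 73.2% on those of 1/25. The imbalance of the counts was not tested. For these only a bound on the difference is given, from the mean of the bright group over, on each array of the dim group, the dimmest signal that still counted as above background or the gene's own signal where that was higher. Sh3tc2, a gene of peripheral myelin, had levels of -4.62, -3.17 and -2.53 at 1/5, against -4.97, -4.66 and -5.16 at 1/25. By its mean it read at least 2.45-fold higher at 1/5 (adjusted p 0.443, limma), though the nearest arrays of the groups almost met. For Acbd4 the levels were -4.79, -3.79 and -1.97 at 1/5, against -4.58, -5.35 and -5.35 at 1/25, so the groups overlapped and no bound is given. Nkx2-5, a transcription factor of early heart development, had levels of -4.60, -3.72 and -3.44 at 1/5, against -4.62, -5.16 and -5.21 at 1/25. By its mean it read at least 1.75-fold higher (adjusted p 0.383, limma), and its nearest arrays almost met too. In the other direction, Ccnjl was not well above background at 1/5 and had levels of -2.59, -3.63 and -3.27 at 1/25, so it read at least 4.39-fold lower at 1/5 (adjusted p 0.238). For Slc7a7, a transporter of cationic amino acids, the levels were -7.30, -5.74 and -4.03 at 1/5, against -4.09, -3.48 and -4.74 at 1/25, which overlapped too. None of these genes passed the test.

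No gene on the list of prostanoid synthesis and receptors, the pathway of the drug's main target, passed the test. Ptgs2 could not be tested: 1 of its probes was below background on all 6 arrays, and the other was well above it on 2 of 3 arrays of 1/5 and 2 of 3 of 1/25. Ptgs1, the constitutive cyclooxygenase, had levels of 1.42, 1.33 and 1.17 at 1/5, against 1.48, 1.39 and 1.47 at 1/25, and its difference of -0.14 ± 0.17 (SE; -0.28 on the shared slide) was smaller than its error. Of 15 tested genes of the list, 5 read higher and 10 lower, with a median of -0.12. Over all genes saturated on no array, 50.1% read higher, and the list has no test of its own. At an unadjusted p below 0.05, 2 were lower and 0 higher, against 4.80% and 5.01% of all genes saturated on no array. Alox5ap hands arachidonic acid to 5-lipoxygenase, not to a cyclooxygenase, so it stands on the list as a neighbour of the pathway. It had levels of -3.00, -2.85 and -2.76 at 1/5, against -1.86, -1.93 and -2.16 at 1/25. Its groups did not overlap, with a difference of -0.89 ± 0.21 (SE; adjusted p 0.332). Ptger1, a receptor of prostaglandin E2, read -2.12 but was well above background on 1 of 3 arrays of 1/5, and the difference was -0.52 on the shared slide.

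Carbonic anhydrases, other proteins that celecoxib binds, went both ways. Of 9 tested genes, 5 read higher and 4 lower, with a median of 0.01. Car5b, the mitochondrial form, had levels of -2.74, -2.99 and -3.05 at 1/5, against -2.06, -1.86 and -1.83 at 1/25, a difference of -1.01 ± 0.26 (SE; adjusted p 0.348). Car9, the membrane form induced by hypoxia, read 0.76 higher at 1/5, and this came to 0.26 on the shared slide. Car6, the secreted form, read 1.11 higher (0.46 on the shared slide), with adjusted p-values of 0.461 for Car9 and 0.510 for Car6.

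Stress pathways showed no common direction. For genes of ATF4, the transcription factor of the integrated stress response, 12 of 25 read higher and 13 lower, with a median of -0.02. Trib3, an ATF4 target that restrains it in turn, had levels of 1.57, 1.67 and 1.58 at 1/5, against 1.76, 1.79 and 1.79 at 1/25, a difference of -0.18 ± 0.18 (SE). Asns, the asparagine synthetase, read 0.42 ± 0.24 (SE; 0.05 on the shared slide), and Cebpg, a partner of ATF4, read 0.43 ± 0.19 (SE), neither with an adjusted p below 0.545. Among 18 cytosolic aminoacyl-tRNA synthetases, 10 read higher and 8 lower, with a median of 0.05. Chaperones and sensors of the endoplasmic reticulum were split 10 to 9, with a median of 0.02, although Ern1 was among the 24 leading genes.

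The cytosolic heat shock list had the highest median of the 34 pathway lists over genes saturated on no array, at 0.15. In it, 10 of 14 genes read higher. The list also holds Hspd1 and Hspe1, whose products are mitochondrial, and Hspd1, at 0.25, is among those 10. Hspa4, a nucleotide exchange factor of the HSP70 chaperones, had levels of 1.72, 1.5 and 1.63 at 1/5, against 0.33, 0.60 and 0.84 at 1/25. Its difference was 1.02 ± 0.38 (SE; adjusted p 0.506), and 0.44 as the mean of its 2 probes, 1 of which read the other way. The error includes the 3 arrays of concentration 1, with an SD of 0.93 there, against 0.11 at 1/5 and 0.26 at 1/25. Hspa4l read 0.40 ± 0.19 (SE), while Cryab was saturated on all 6 arrays and has no fold. Against the 50.1% of all unsaturated genes that read higher, this is a small list with no test of its own. Genes of the NRF2 response were split 9 to 10.

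For fatty acid oxidation and PPAR targets, 3 of 16 genes read higher and 13 lower, with a median of -0.18 (7 to 13 and -0.08 over all 20 tested). Of the 16, 4 had all arrays of 1/5 below all of 1/25 and 1 had all above. The shares over all genes saturated on no array were 7.84% and 8.59%, and the list has no test of its own. Acadvl, the first enzyme of long-chain fatty acid oxidation, had levels of 0.27, 0.65 and 0.63 at 1/5, against 1.13, 1.16 and 0.89 at 1/25, a difference of -0.55 ± 0.22 (SE; adjusted p 0.525), and -0.23 as the mean of its 2 probes, which differ in direction. Acadm, the medium-chain enzyme, read -0.37, and Ppara, the receptor that drives the pathway, read -0.63 (-0.27 on the shared slide).

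For cholesterol synthesis, 7 of 19 read higher and 12 lower, with a median of -0.09. Sc5d, a late enzyme of the pathway, had levels of -1.46, -1.73 and -1.10 at 1/5, against -0.62, -0.33 and -0.32 at 1/25. Its difference was -1.0 ± 0.32 (SE; adjusted p 0.440), with -0.67 for Mvd, the mevalonate decarboxylase, and -0.75 for the desaturase Scd.

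Glycolysis and hypoxia genes read higher in 8 of 25 cases and lower in 17, with a median of -0.13. Eno3, the muscle enolase, had levels of -0.52, -0.50 and -0.34 at 1/5, against 0.13, 0.70 and 0.54 at 1/25. Its difference was -0.91 ± 0.21 (SE; adjusted p 0.332). Pdk1 belongs to the same list. Respiratory chain genes were split 17 to 11, with a median of 0.08. Cox5b, a subunit of cytochrome c oxidase, read -0.47 ± 0.17 (SE; -0.15 as the mean of its 2 probes, 0.08 with normexp), and Ndufs1, a subunit of complex I, read -1.08 ± 0.42 (SE).

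Genes of heart muscle read in both directions once saturated spots were set aside. Of 31 sarcomere genes tested, 12 were saturated on at least 1 array, and the other 19 were split 8 higher to 11 lower, with a median of -0.05, against 18 to 13 and a median of 0.14 over all 31. Myh6, the adult alpha myosin heavy chain, had levels of 2.74, 2.42 and 2.25 at 1/5, against 1.71, 1.73 and 1.66 at 1/25. The groups did not overlap, but 1 array of 1/5 was saturated and the difference was 0.77 ± 0.43 (SE; adjusted p 0.598). Its SD was 0.25 at 1/5, 0.04 at 1/25 and 1.1 at concentration 1, whose arrays enter that error. Nppa, which encodes atrial natriuretic peptide, had levels of 1.22, 0.91 and 1.12 at 1/5, against 0.42, 0.93 and 0.56 at 1/25, a difference of 0.45 ± 0.43 (SE). Nppb, Tnnt2 and Actc1 were saturated on all 6 arrays and have no fold.

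The cultures are labelled as cardiomyocytes, and the markers of that cell type were read beside those of others. On all 6 arrays, signals well above background were read for 12 of 12 cardiomyocyte markers and 11 of 12 fibroblast markers. The same held for 21716 of all 23600 genes tested, a share that the filter on background raised in advance. Of the markers on the array, tested or not, it held for 10 of 15 macrophage and leukocyte ones and 4 of 12 endothelial ones. Markers of each of these types were thus detected, and such counts do not measure the share of a cell type in the cultures. The summed linear level of the cardiomyocyte markers, as a multiple of the 75th percentile, was 44.7 to 46.8 at 1/5 and 34.0 to 41.9 at 1/25. For the 6 markers saturated on no array it was 9.80 to 11.1 at 1/5 and 9.76 to 11 at 1/25, which overlapped. For the 8 unsaturated fibroblast markers it was 7.38 to 7.74 at 1/5 and 5.71 to 6.71 at 1/25. Those ranges did not overlap, but without Col3a1, a fibrillar collagen, the other 7 summed to 3.32 to 3.59 at 1/5 and 3.84 to 4.42 at 1/25, which is lower at 1/5. Col3a1 was the 1 fibroblast marker higher at an unadjusted p below 0.05, at 1.04 ± 0.46 (SE; adjusted p 0.543).

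Ion channel genes held readings on both sides, 10 of 22 higher and 12 lower. Of these, 5 had all arrays of 1/5 below all of 1/25 and 2 had all above, against 7.84% and 8.59% of all genes saturated on no array. Kcnj2, the inward rectifier potassium channel, had levels of -1.09, -1.65 and -1.18 at 1/5, against -2.12, -2.34 and -2.14 at 1/25, a difference of 0.90 ± 0.26 (SE; adjusted p 0.383). Scn4b, a sodium channel subunit, read -0.75 ± 0.26 (SE), but -0.16 as the mean of its 2 probes, which differ in direction. Abcc9, a subunit of the ATP-sensitive potassium channel, read -0.64 ± 0.23 (SE; -0.37 with normexp). Calcium handling genes were split 11 to 9, with Camk2b, a calcium-dependent kinase, at -0.69 ± 0.25 (SE) by its brighter probe and -0.0071 as the mean of its 2 probes, which differ in direction. Connexin and desmosome genes had 4 of 12 higher and 8 lower, with a median of -0.23, but over all 18 tested genes, saturated ones included, they were split 9 to 9 with a median of 0.02. Gjb2, a connexin, read -0.53 ± 0.23 (SE; adjusted p 0.536; -0.80 on the shared slide).

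Cell cycle and cell death lists held genes on both sides. Mitosis genes were split 14 higher to 17 lower, with Ttk, a spindle checkpoint kinase, at 0.75 ± 0.22 (SE; 0.38 as the mean of its probes) and Cdca3 at 0.76 ± 0.23 (SE; adjusted p 0.396 for both). DNA replication genes were split 10 to 16, with a median of -0.12, and targets of p53 7 to 12, with a median of -0.09. The BCL2 family and cell death genes were split 9 to 8. In that family, Birc2, an inhibitor of apoptosis, read 0.74 (0.38 on the shared slide), and Bik, a pro-apoptotic member, read -0.65 ± 0.27 (SE; -0.41 with normexp).

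Of 46 cytosolic ribosomal protein genes, 37 read higher at 1/5, but 27 of the 46 were saturated on at least 1 array. Of the 19 others, 13 read higher, with a median of 0.10. Rps7 had the smallest p of the list, at 0.78 ± 0.19 (SE; adjusted p 0.348), and Rps6 read -0.65 ± 0.21 (SE; -0.28 on the shared slide). Proteasome genes were split 11 to 12.

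Inflammatory and early response genes gave single readings in both directions. Nr4a3, an orphan nuclear receptor of the early response, had levels of -2.01, -2.11 and -2.01 at 1/5, against -1.39, -1.53 and -1.31 at 1/25, a difference of -0.63 ± 0.18 (SE; adjusted p 0.380), and -0.18 as the mean of its 2 probes, which differ in direction. Its relative Nr4a1 read 0.61 ± 0.23 (SE; 1.02 on the shared slide). Icam1, an adhesion molecule of inflamed vessels, read -0.44 ± 0.20 (SE), and among interferon genes Ifi44 read 0.64 ± 0.24 (SE; 0.38 as the mean of its probes). Klf3, a repressor of the Kruppel family, read -0.98 ± 0.27 (SE), which came to -0.42 on the shared slide. Cd83, an activation marker of dendritic cells, read -0.43 ± 0.23 (SE; -0.68 on the shared slide). Ctss, a lysosomal protease of macrophages, read 0.20 ± 0.24 (SE). Gldn, which gathers sodium channels at nodes of myelinated nerves, read -0.02 ± 0.25 (SE), and Hs3st1, a sulfotransferase of heparan sulfate, read -0.13 ± 0.24 (SE).

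**Figure D4:**
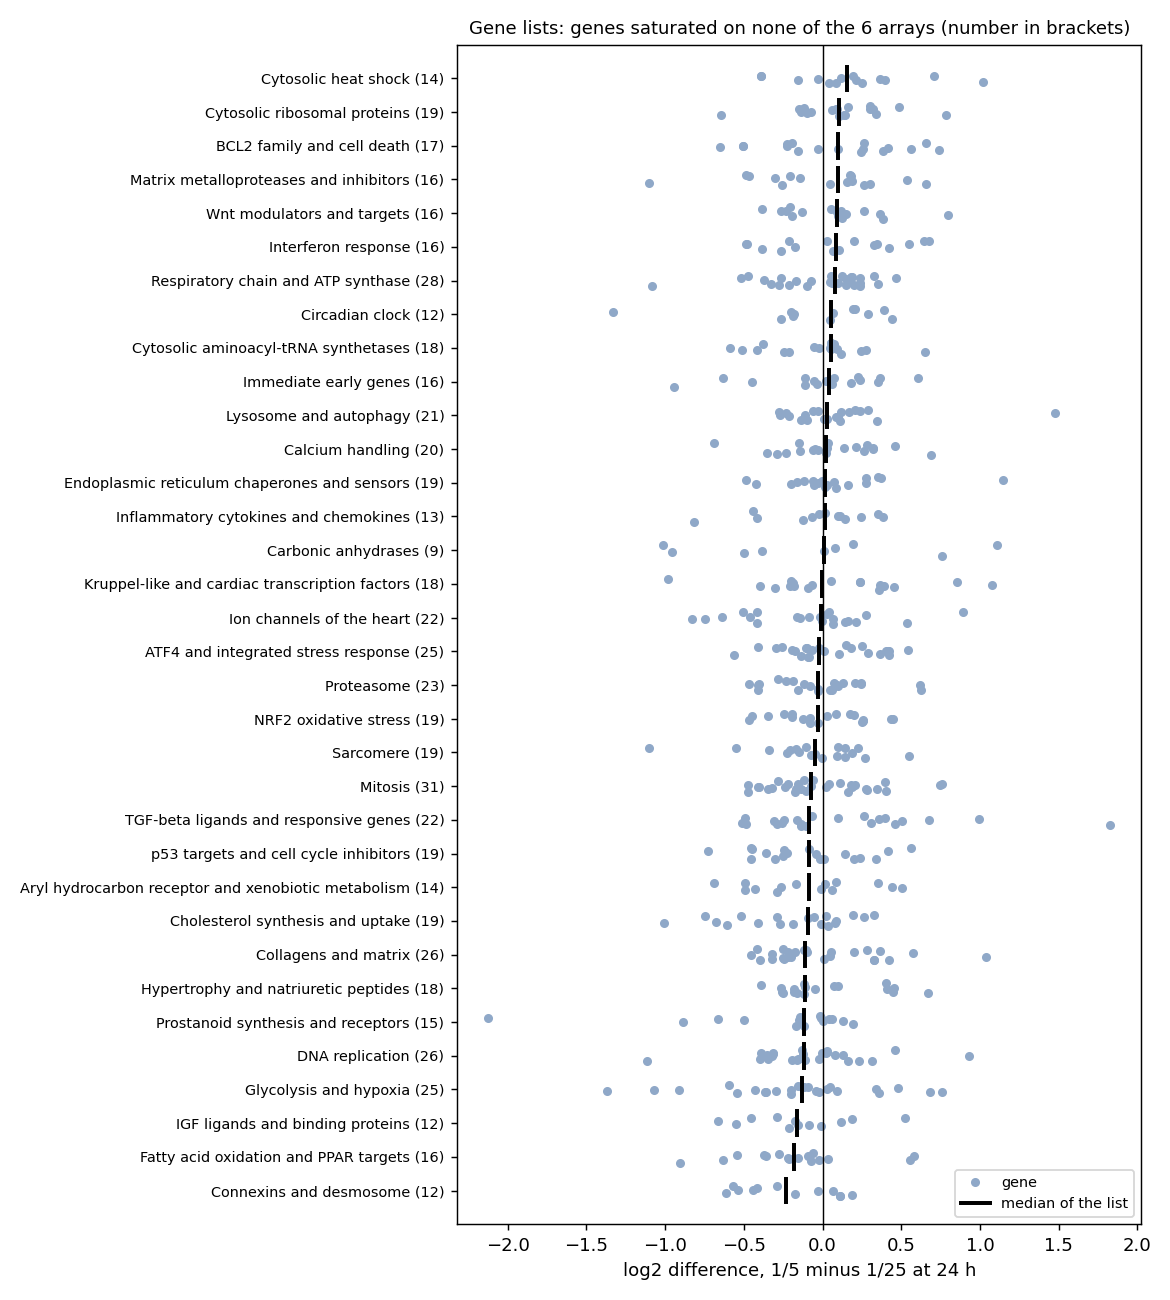
Log2 difference, 1/5 minus 1/25 at 24 h (horizontal axis), of each gene saturated on none of the 6 arrays (points), by pathway list (rows, with the number of genes), and the median of each list (black bars). The medians lie between -0.23 for connexins and desmosome and 0.15 for cytosolic heat shock, and the points of every list lie on both sides of 0.

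Concentration 1 at 24 h is set beside the other concentrations for the leading genes, without a test, since the 1/5 arrays chose these genes. For Kidins220 the mean level was -1.35 at 1/25, -0.11 at 1/5 and -1.44 at 1. For Eaf1 it was -3.30 at 1/25, -1.64 at 1/5 and -2.41 at 1. For Prrg4 it was -0.57 at 1/25, -1.90 at 1/5 and -0.95 at 1. The middle concentration was the extreme one in all 3, which the choice of genes by their 1/5 arrays favours. Pdk1 averaged -1.51 at 1/25, -2.88 at 1/5 and -1.39 at 1, and Cspg4 averaged 0.91 at 1/25, -0.31 at 1/5 and 0.28 at 1. Not every leading gene read so: Gpc4 averaged -1.53 at 1/25, -2.59 at 1/5 and -2.64 at 1.

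**Figure D5:**
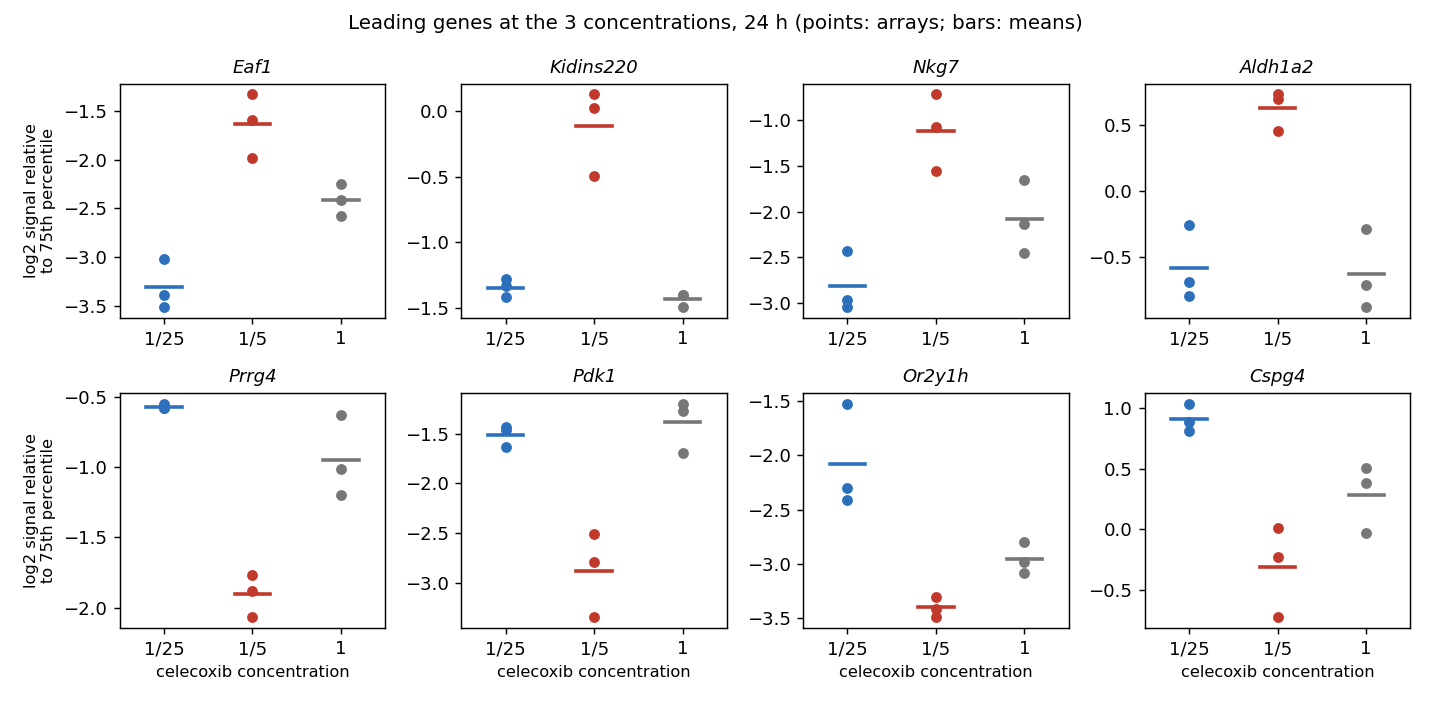
Level at 24 h as log2 signal relative to the array's 75th percentile (vertical axis, a scale of its own in each panel) at celecoxib 1/25, 1/5 and 1 (horizontal axis), for the 4 leading genes of smallest p that read higher (upper row) and lower (lower row) at 1/5. Points are arrays and bars are means of 3. In each panel the 1/5 mean is the extreme one, as in Kidins220 with -1.35 at 1/25, -0.11 at 1/5 and -1.44 at 1.

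The same pair of concentrations at 6 h was read on another 6 arrays. With scan day as a block, 0 of 27088 genes (0%) passed the test, the smallest adjusted p was 0.401, and 2246 (8.29%) had an unadjusted p below 0.05, 5.98% higher and 2.31% lower at 1/5. Without 1/25 replicate 2 at 6 h the count of genes passing was 934. All 3 arrays of 1/5 at 6 h and 2 of the 3 of 1/25 were scanned on the second day, and 1/25 replicate 1 on the first. The 1/5 arrays of 6 h shared a slide that held none of 1/25, so concentration at 6 h cannot be told apart from slide. With slide as a random block in place of scan day, the smallest adjusted p at 6 h was 0.991 (limma). Of the 24 leading genes, 5 of the 12 higher ones and 5 of the 12 lower ones had the same sign at 6 h. Of the higher ones 0 had an unadjusted p below 0.05 at 6 h, and of the lower ones 3 did. Among those 3, Ahsp and Mllt11 read lower at 6 h too, while Pdk1 read higher.

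The test of the 24 h difference against the 6 h difference also passed for no gene, with 0 of 27241 (0%) called, a smallest adjusted p of 0.102 and 2332 (8.56%) with an unadjusted p below 0.05, 4.15% with a higher and 4.41% with a lower difference at 24 h. Pdk1 had that smallest value. At 6 h its levels were -1.69, -2.10 and -1.76 at 1/5, against -2.06, -2.83 and -3.24 at 1/25, with means of -1.85 at 1/5 and -2.71 at 1/25. The fitted 6 h difference, which takes scan day but not slide into account, was 1.17 ± 0.28 (SE), opposite in sign to that at 24 h. The 24 h difference minus the 6 h difference was -2.54 ± 0.39 (SE; adjusted p 0.102). When slide was a random block in place of scan day, the smallest adjusted p of any gene in this test was 0.995 (limma). Ahsp kept its direction, with -0.67 ± 0.24 (SE) at 6 h, and Mllt11 read -0.89 ± 0.38 (SE) at 6 h. Neither passed the test at 6 h, where both had an adjusted p of 0.596.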

How the data were processed

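Per the file headers, the scanner files deposited per array give each spot's intensity on a linear scale, extracted with Agilent Feature Extraction 9.5.3.1, whose processed signal is already corrected for background. The authors' deposited table of values is a linear ratio, which matched the processed signal over the array median and over the mean of the untreated arrays (99.7% of 814797 values within 1%); it served as an alternative. The log2 processed signal, less the array's own 75th percentile on that scale, was averaged over the spots of a probe, without control spots and outlier flags. A probe was kept if well above background on every array of 1/5 or of 1/25 (26771 of 41012), and the brightest kept probe stood for its gene. Of 41012 probes, 19002 kept the name in the scanner file and the rest took the RefSeq symbol.

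limma 3.58.1 in R 4.3.3 (lmFit, eBayes, Benjamini-Hochberg, threshold 0.05) was fitted on the 9 arrays of 24 h. The 6 h comparison and the difference between times used all 20 arrays with scan day as a block. The fits were tested on simulated data. Levels depend on the percentile scaling, and the number of arrays limits the precision.

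Genes named were the 12 of smallest p in each direction, as above, up to 3 of smallest p per list, the 3 largest bounds in each direction, and Ptgs1, Ptgs2, Gldn, Hs3st1, Ctss, Cd83, Asns, Trib3, Nppa, Nppb and Myh6; some genes that these rules name are not reported here. The comparison, gene lists and rules were chosen with earlier results of these data known. Slides, saturation, scaling, filters and single arrays were varied as alternatives.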

Additional observations from a re-analysis of the deposited data

How the results depend on the processing

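The count of 0 genes passing limma's test between 1/5 and 1/25 at 24 h was the same with normexp background correction, quantile normalization, scaling to the median, no filter on background, a filter on all groups, the mean over probes, saturated probes left out, the deposited value table, the 6 arrays alone, all 20 arrays with and without scan day, and slide as a fixed or random block or restricted to the shared slide. Leaving out single arrays gave 0 to 9 genes at 24 h: 1 without 1/5 replicate 1, 2 without 1/5 replicate 2, 9 without 1/5 replicate 3 and 1 without 1/25 replicate 2. Genes with an unadjusted p below 0.05 numbered 2160 as reported, 1050 with slide as a fixed block and 973 with all 20 arrays and no block. Replicate numbers shared by both groups do not pair the arrays (correlations of the deviations of same-numbered arrays were -0.148, -0.220 and 0.042), and the fit with the replicate block also called 0 genes at 24 h, with 1768 at an unadjusted p below 0.05.

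At 6 h, 0 genes were called except without single arrays, where the count ran from 0 to 934, the highest without 1/25 replicate 2 at 6 h, with 2 without 1/25 replicate 3 and 1 without 1/5 replicate 1 or 3. The test of the 24 h difference against the 6 h difference gave 0 to 1 genes without single arrays (1 without 1/25 replicate 3 at 6 h, 1/5 replicate 1 at 24 h or 1/25 replicate 3 at 24 h) and 0 under its other alternatives. With the replicate block, both counts were 0. Normexp gave 3911 genes at an unadjusted p below 0.05 at 6 h, against 2246 as reported, and slide as a random block gave 615 there and 711 for the difference between times, against 2332.

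Scaling to the median moved the median of all genes to 0.07 at 24 h, against 0.05, and to -0.09 at 6 h, against 0.08. Of 1654 values of named genes under these alternatives, 1644 kept their direction and 10 turned. For the 24 leading genes, the naming rule fixed the direction of a probe without single arrays and on the shared slide. Their part of the count is therefore no result there, and most other named genes were picked by small p. Gldn (-0.02 as reported) read 0.0070 when scaled to the median, 0.0046 in the deposited value table, 0.18 with slide as a fixed block or on the shared slide, and -0.13 to 0.15 without single arrays. Ctss read -0.015 as the mean over probes and -0.028 to 0.38 without single arrays, turning without 1/25 replicate 1. Hs3st1 read -0.39 to 0.036 without single arrays, turning without 1/5 replicate 2. Cox5b read 0.082 with normexp. The causes were not tested. Background limits what was read of dim genes: the share of probes clearly above it ran from 63.5% to 79.7% per array.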

Other observations

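Further gene groups at 24 h were read in the same way, over genes saturated on no array. Genes of TGF-beta signalling were split 10 higher to 12 lower at 1/5, with Id2, an inhibitor of differentiation, at 0.99 ± 0.38 on the log2 scale (SE; adjusted p 0.518, limma; 0.61 as the mean of its probes). Over all 29 tested genes of that list, saturated ones included, the split was 16 to 13. Collagen and matrix genes were split 11 to 15, with a median of -0.11, and 17 to 15 over all 32 tested. Matrix metalloproteases and their inhibitors were split 9 to 7, and the inhibitor Timp3 read -1.10 ± 0.40 (SE), which came to -0.13 on the slide that both groups share. Wnt genes were split 10 to 6. Genes of IGF ligands and binding proteins were split 3 to 9, with Igfbp6 at -0.55 ± 0.27 (SE).

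Genes of the aryl hydrocarbon receptor and xenobiotic metabolism were split 6 to 8, and Abcg2, a drug efflux pump, read -0.69 ± 0.24 (SE; adjusted p 0.478; -0.39 with normexp). Clock genes were split 7 to 5, with Nr1d1, a repressor of the clock, at -1.33 ± 0.39 (SE; adjusted p 0.390), well above background on 2 of 3 arrays of 1/5. Hypertrophy genes were split 7 to 11, with the growth factor Fgf2 at 0.67 ± 0.30 (SE) but 0.11 as the mean of its 2 probes. Kruppel and cardiac transcription factors were split 9 to 9, with Mef2a at 0.85 ± 0.38 (SE) but 0.40 as the mean of its 2 probes. In both genes the probes differ in direction. Lysosome genes were split 12 to 9, early response genes 9 to 7, cytokine genes 7 to 6 and interferon genes 10 to 6. Macrophage and leukocyte markers were split 4 to 5, and Schwann and neural crest markers 4 to 3, with Sox10, the lineage factor, at -0.59 ± 0.21 (SE).

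Some genes with p-values as small as the leading ones were left out by the requirement of signal above background on all 6 arrays, and the 3 given here were chosen after their values were seen. Gucy1a2, which had the smallest p of all genes tested, had levels of -6.43, -7.10 and -6.40 at 1/5, against -4.23, -3.58 and -4.49 at 1/25 (adjusted p 0.233, limma), with 0 of 3 arrays of 1/5 well above background, so no fold is given. Nefm, a neurofilament subunit, had levels of -4.49, -4.45 and -4.79 at 1/5, against -2.77, -2.55 and -3.24 at 1/25, a difference of -1.72 ± 0.26 (SE; adjusted p 0.238), with 2 of 3 arrays of 1/5 well above background. Rgs18, a regulator of G protein signalling in blood cells, had levels of -2.30, -2.17 and -2.39 at 1/5, against -3.83, -5.19 and -3.63 at 1/25. Its difference was 1.93 ± 0.36 (SE; adjusted p 0.238), with 2 of 3 arrays of 1/25 well above background.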
